A study of Mus musculus with 24 samples.

Results

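The genes described here are the mouse amino acid and neurotransmitter transporters of 7 solute carrier families, Slc1a, Slc3a, Slc6a, Slc7a, Slc36a, Slc38a and Slc43a. A protein-coding gene belonged to the group when its symbol was 1 of these family names followed by digits only, and Slc7a11 was left out. This gave 60 of the 54232 gene identifiers in the count tables: 7 in Slc1a, 2 in Slc3a, 19 in Slc6a, 14 in Slc7a, 4 in Slc36a, 11 in Slc38a and 3 in Slc43a. Of the 60 genes, 59 had at least 1 count, and Slc6a18 had 0 counts in every library. Marrow cells of C57BL/6 females aged 6 to 8 weeks were grown as stromal cultures for 7 days in MEM-alpha with serum and sorted by the surface proteins CD45 and Sca1 before RNA extraction. The groups were hematopoietic cells (CD45+Sca1+) homozygous for the knock-in allele (Sh3bp2KI/KI, called KI), wild type (WT) hematopoietic cells, KI mesenchymal cells (CD45-Sca1+) and WT mesenchymal cells, with 6 libraries in each of the 4 groups. Sh3bp2 encodes a signalling adaptor whose human gene is mutated in cherubism, a disease of the jaw, and the mice carry a knock-in of that gene. Knock-in cells of both populations had developed and been cultured with the allele, and both populations came from mixed cultures.

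Most of these proteins sit in the plasma membrane and bring amino acids or related small molecules into the cell, using the gradients of sodium, chloride or protons or exchanging one amino acid for another. Slc1a proteins carry acidic or small neutral amino acids, and Slc6a proteins carry neurotransmitters, taurine, creatine, betaine and glycine. Light chains of the Slc7a family pair with the heavy chain Slc3a2, and the Slc38a family carries glutamine and other small neutral amino acids. The Slc36a family couples small amino acids to protons, and Slc43a1 and Slc43a2 let large neutral amino acids through without a coupled ion.

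Library totals ran from 9875390 to 15826711 counts. Ptprc, the gene of CD45, had a log2 difference of -8.06 for mesenchymal over hematopoietic cells in WT (SE 0.41, Benjamini-Hochberg adjusted p = 2.84e-14 from the edgeR quasi-likelihood test), while Ly6a, the gene of Sca1, had -0.22 (adjusted p = 0.644, edgeR). Itgam, a common leukocyte marker, had 0 counts in all 24 libraries. Sh3bp2 itself had a KI over WT log2 fold change of 0.15 (SE 0.12, edgeR adjusted p = 0.448) in hematopoietic cells. A gene-level count does not show which allele was transcribed, so Sh3bp2 is no check of the genotype. The estimated share of stromal RNA in hematopoietic libraries averaged 11.5% ± 6.65 in KI and 10.4% ± 4.72 in WT (SD, n = 6 each), with ranges of 4.94% to 24.2% and 6.25% to 19.4% (two-sided exact permutation test, p = 0.693). Leukocyte RNA in mesenchymal libraries was 0.158% to 0.905% in KI and 0.201% to 0.592% in WT. Values below are counts per 1000000 (CPM) scaled with TMM factors over the 24 libraries, and an adjusted p under 0.05 counts as passing the test. The labels do not say whether libraries of a group came from separate animals, so p-values measure the spread between these libraries.

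In hematopoietic cells, 33 of the 60 transporters had enough counts to be tested, and 6 rose in KI while 1 fell. The betaine and GABA transporter Slc6a12, the proton-coupled transporter of glycine, alanine and proline Slc36a2, the neuronal vesicle transporter Slc6a17, the creatine transporter Slc6a8, the glutamine exchanger Slc1a5 and Slc38a6 were higher in KI. Slc7a7, a light chain that exports cationic amino acids, was lower. Among all 14030 genes tested, 9.01% were higher and 6.89% lower, against 18.2% and 3.03% of the transporters tested. Slc6a12 and Slc36a2 were singled out when the group was chosen, with their results known. Slc6a12 and Slc6a17 passed the count filter mainly through their KI libraries. The 18.2% is therefore no result about these families as a whole. The hematopoietic level of Slc6a17 was also near the stromal RNA estimated in those libraries, as given below. The median log2 fold change was 0.12 over the transporters and -0.0048 over all genes. Fold changes with their errors are shown for every tested transporter in the plot of genotype differences.

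**Figure D1:**
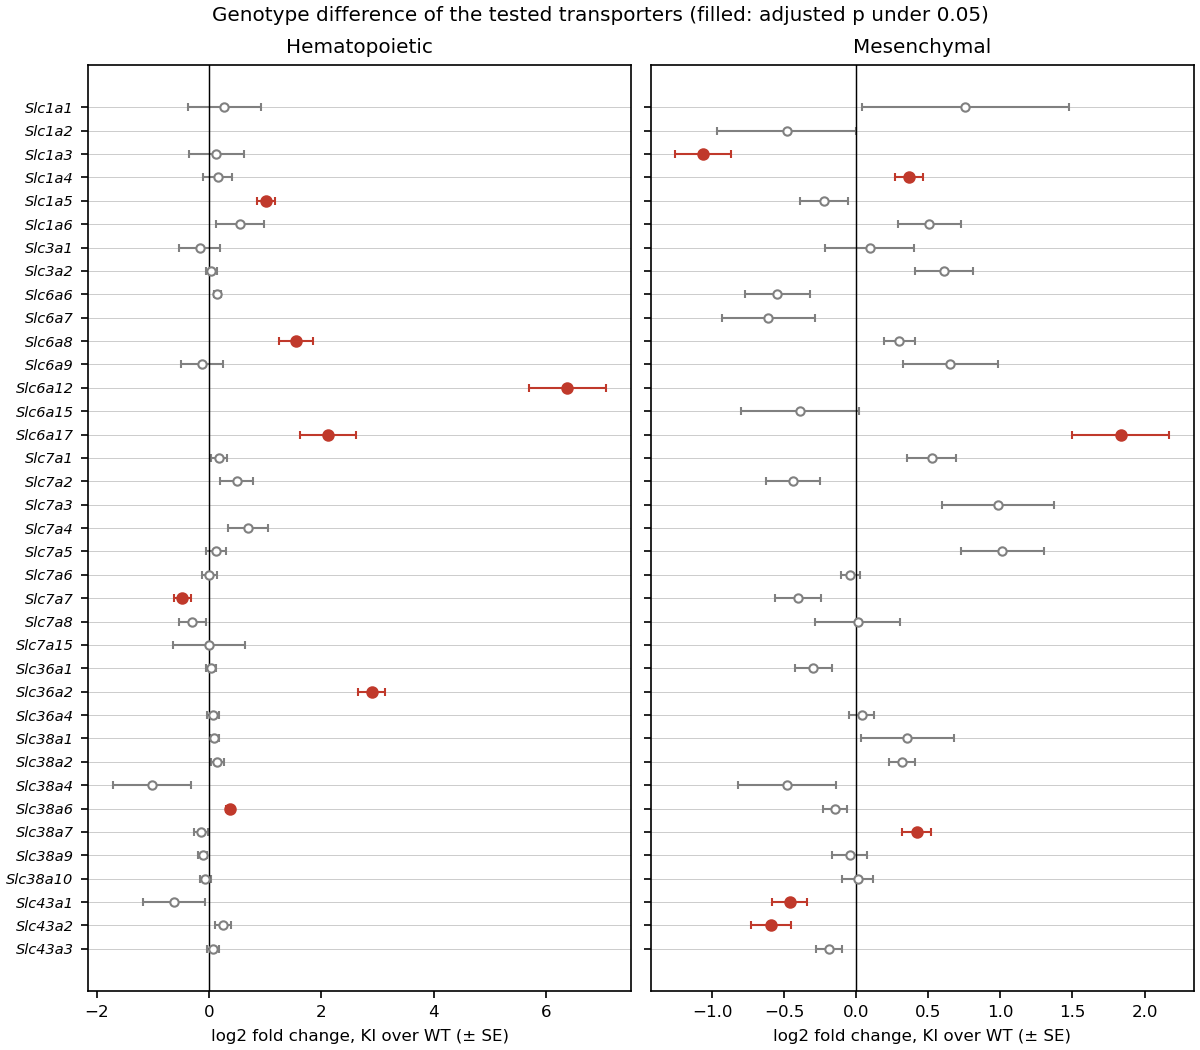
Log2 fold change of KI over WT with its SE for the 37 transporters tested in at least 1 population, in hematopoietic cells (left) and mesenchymal cells (right), whose horizontal scales differ. Filled points had an adjusted p under 0.05 (edgeR's quasi-likelihood test), and Slc6a12 at 6.38 and Slc36a2 at 2.90 in hematopoietic cells lie farthest to the right.

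Slc6a12 lies on chromosome 6 at chr6:121343076-121365775 on the plus strand of GRCm38, directly downstream of Slc6a13, a GABA transporter on the same strand at chr6:121300227-121337733. In KI hematopoietic libraries 1 to 6 it had 75, 163, 47, 59, 18 and 119 counts, and in WT hematopoietic libraries 2, 1, 2, 0, 0 and 0. These are 1.33 to 11.9 CPM with a median of 5.28 in KI, against 0 to 0.206 CPM with a median of 0.0351 in WT. Every KI library lay above every WT library. The fitted log2 fold change was 6.38 (SE 0.69, Benjamini-Hochberg adjusted p = 9.45e-05 from the edgeR quasi-likelihood test). With only 5 counts in all WT hematopoietic libraries, the size of the fold is loosely fixed: the pooled counts of 481 in KI and 5 in WT gave a ratio of 95.2 with a 95% counting interval of 40.5 to 295, which covers counting error only. Within the 2 sets of libraries that the file names separate, the log2 fold change was 5.63 (adjusted p = 0.00522) and 9.08 (adjusted p = 0.0641, edgeR). Mesenchymal libraries had 2 to 12 counts of Slc6a12 in KI and 0 to 14 in WT, too few for the test. Among WT cells it was the mesenchymal population that had more of it, at a log2 difference of 2.66 (SE 0.87, edgeR adjusted p = 0.00901), and among KI cells the mesenchymal population had less, at -3.84 (SE 0.57, edgeR adjusted p = 2.35e-06). The genotype difference was itself different between the populations, by -6.50 (SE 1.02, edgeR adjusted p = 0.000275) for mesenchymal minus hematopoietic. Slc6a12 entered the fit of all 24 libraries only through its KI hematopoietic counts, and the other 3 groups were near the floor. In WT the pooled counts were 39 in mesenchymal and 5 in hematopoietic libraries, a ratio of 7.16 with a 95% counting interval of 2.82 to 23.3. The size of these population and interaction differences is therefore loosely fixed.

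The promoters of Slc6a12 and of its neighbour Slc6a13 are shown because the adjoining genes of 1 transporter family had different levels in KI hematopoietic cells. They are RefSeq sequences of GRCm38.p6, 250 bases before to 50 after the start of transcription, 5′ to 3′ on the gene's own strand, plus in both cases. Of several RefSeq starts, the one nearest to the GENCODE gene start was taken, 0 bases away for Slc6a12 and 61 for Slc6a13. Both were searched on both strands for the AP-1 motif TGANTCA, the C/EBP-ATF response element TGATGNAA (CARE), the E-box CACGTG and the NFAT core TGGAAA. Neither window held any of the 4 letter strings, so no base is in capitals.
Slc6a12 promoter, chr6:121342826-121343125: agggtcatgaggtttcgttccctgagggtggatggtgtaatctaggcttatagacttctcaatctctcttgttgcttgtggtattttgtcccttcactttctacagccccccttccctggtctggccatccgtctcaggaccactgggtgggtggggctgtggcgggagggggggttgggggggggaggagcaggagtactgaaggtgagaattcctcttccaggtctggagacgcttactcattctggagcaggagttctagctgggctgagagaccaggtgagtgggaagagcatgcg
Slc6a13 promoter, chr6:121300038-121300337: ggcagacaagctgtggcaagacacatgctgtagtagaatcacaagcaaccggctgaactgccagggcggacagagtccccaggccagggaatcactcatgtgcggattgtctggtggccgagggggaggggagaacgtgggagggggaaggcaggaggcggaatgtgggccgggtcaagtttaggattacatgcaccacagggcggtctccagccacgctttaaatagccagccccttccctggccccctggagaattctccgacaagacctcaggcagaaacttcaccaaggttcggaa
Over all 32851 promoters of this length in the table, 7.81% held the AP-1 motif, 3.97% the CARE, 7.15% the E-box and 21.4% the NFAT core. Of the 60 transporters, 42 had a promoter entry, and 7, 3, 9 and 7 of the 42 held these motifs in that order. A match is a run of letters and no sign of binding.

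Slc6a13 and Slc6a11, GABA transporters related to Slc6a12, had few counts. Slc6a13 had 10 counts in the 6 KI hematopoietic libraries and 1 count in the WT ones, and 0 in all 12 mesenchymal libraries. Slc6a11 had 2 counts in KI and 0 in WT hematopoietic libraries. Neither was tested, for lack of counts. Slc6a6, the taurine transporter, was the most abundant of the 60 per kilobase of exon in hematopoietic cells, with 114 CPM per kb in KI and 104 CPM per kb in WT. Its level in hematopoietic libraries was 927 to 1012 CPM (median 962) in KI and 825 to 960 CPM (median 871) in WT, and the groups overlapped. The log2 fold change of Slc6a6 was 0.14 (SE 0.07, edgeR adjusted p = 0.171), and DESeq2 called it.

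Slc6a8 brings creatine into the cell. It had 80.9 to 150 CPM (median 123) in KI hematopoietic libraries, against 18 to 63.7 CPM (median 43.3) in WT ones. All KI libraries were above all WT libraries, and the WT libraries were widely spread. The log2 fold change was 1.54 (SE 0.31, edgeR adjusted p = 0.00526), with 1.61 and 1.49 in the 2 file-name sets, neither past the threshold alone (adjusted p = 0.0721 and 0.153). In mesenchymal cells Slc6a8 had 32.3 to 38.4 CPM in KI and 21 to 33.5 CPM in WT, with a log2 fold change of 0.30 (SE 0.11, edgeR adjusted p = 0.11). The 2 genotype differences were -1.25 apart on the log2 scale (SE 0.33, edgeR adjusted p = 0.0217).

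Of the monoamine transporters, Slc6a4 carries serotonin, Slc6a2 noradrenaline and Slc6a3 dopamine. Slc6a4 had 32, 36, 7, 15, 7 and 20 counts in KI hematopoietic libraries, against 0, 1, 4, 2, 2 and 0 in WT ones. Every KI library had more than every WT library, although the lowest KI counts were 7. It fell below the count filter of the test, and without that filter its log2 fold change was 3.53 (SE 0.60, edgeR adjusted p = 0.000264 over 28770 genes). In mesenchymal libraries its counts were lower, 0 to 4 in KI and 1 to 12 in WT, and the log2 fold change without the filter was -2.36 (SE 0.84, edgeR adjusted p = 0.129). Slc6a2 had 8 counts in KI and 26 in WT hematopoietic libraries, and Slc6a3 had 3 and 5.

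Slc6a17, which in neurons loads neutral amino acids into synaptic vesicles, was mainly a mesenchymal transcript. It had 6.09 to 16.9 CPM (median 11.6) in KI mesenchymal libraries and 0.933 to 5.37 CPM (median 3.10) in WT ones. The groups did not overlap, and the log2 fold change was 1.83 (SE 0.34, edgeR adjusted p = 0.00665). In hematopoietic libraries it had 0.771 to 2.67 CPM (median 1.11) in KI against 0.066 to 0.782 CPM (median 0.217) in WT, a log2 fold change of 2.11 (SE 0.50, edgeR adjusted p = 0.0116). These hematopoietic values overlapped slightly, between the lowest KI and the highest WT library. The stromal RNA estimated in the hematopoietic libraries would by itself carry 1.32 CPM of Slc6a17 in KI and 0.335 CPM in WT, against measured means of 1.44 and 0.311 CPM. After that RNA was subtracted, too few counts were left for a test. The genotype difference in mesenchymal cells minus that in hematopoietic cells was -0.29 (SE 0.57, edgeR adjusted p = 0.854). For Slc6a12 the RNA carried over was estimated at 0.0456 CPM in KI and 0.0486 CPM in WT, and its log2 fold change after subtraction was 6.97 (adjusted p = 9.56e-05, edgeR).

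The Slc6a17 promoter is shown because the gene passed the genotype test upward in the libraries of both populations. In the hematopoietic ones its level was near that of the stromal RNA estimated there, so a rise in hematopoietic cells themselves is not shown. Its 1 AP-1 motif is in capitals. The gene lies on the minus strand, and the RefSeq start was 0 bases from the GENCODE start.
Slc6a17 promoter, chr3:107517969-107518268: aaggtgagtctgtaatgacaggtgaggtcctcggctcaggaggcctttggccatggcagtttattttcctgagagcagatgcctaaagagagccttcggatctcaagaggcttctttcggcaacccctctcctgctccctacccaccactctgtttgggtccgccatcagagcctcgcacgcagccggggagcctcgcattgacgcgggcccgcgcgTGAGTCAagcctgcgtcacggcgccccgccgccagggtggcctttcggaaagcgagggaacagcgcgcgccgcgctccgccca

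The 3 remaining Slc6a genes with more than low counts did not pass the genotype test. Slc6a9, the glycine transporter of glia and red cell precursors, had 38.4 to 71.3 CPM in KI and 8.92 to 58.3 CPM in WT mesenchymal libraries, with a log2 fold change of 0.65 (SE 0.33, edgeR adjusted p = 0.273). Slc6a15, a neutral amino acid transporter of brain, averaged 2.34 ± 0.456 CPM in KI and 3.20 ± 2.17 CPM in WT mesenchymal cells (SD, n = 6 each). Slc6a7, a proline transporter, averaged 1.16 ± 0.559 CPM in KI and 1.92 ± 1.17 CPM in WT mesenchymal cells (SD, n = 6 each). Slc6a19, the neutral amino acid transporter of gut and kidney epithelium, had 33 counts in KI and 11 in WT hematopoietic libraries, and 0 in KI and 7 in WT mesenchymal ones. The glycine transporter Slc6a5 had 1 count in KI and 2 in WT hematopoietic libraries, and 1 in KI and 5 in WT mesenchymal ones. Slc6a14, Slc6a16 and Slc6a21 had between 0 and 6 counts in any group.

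**Figure D2:**
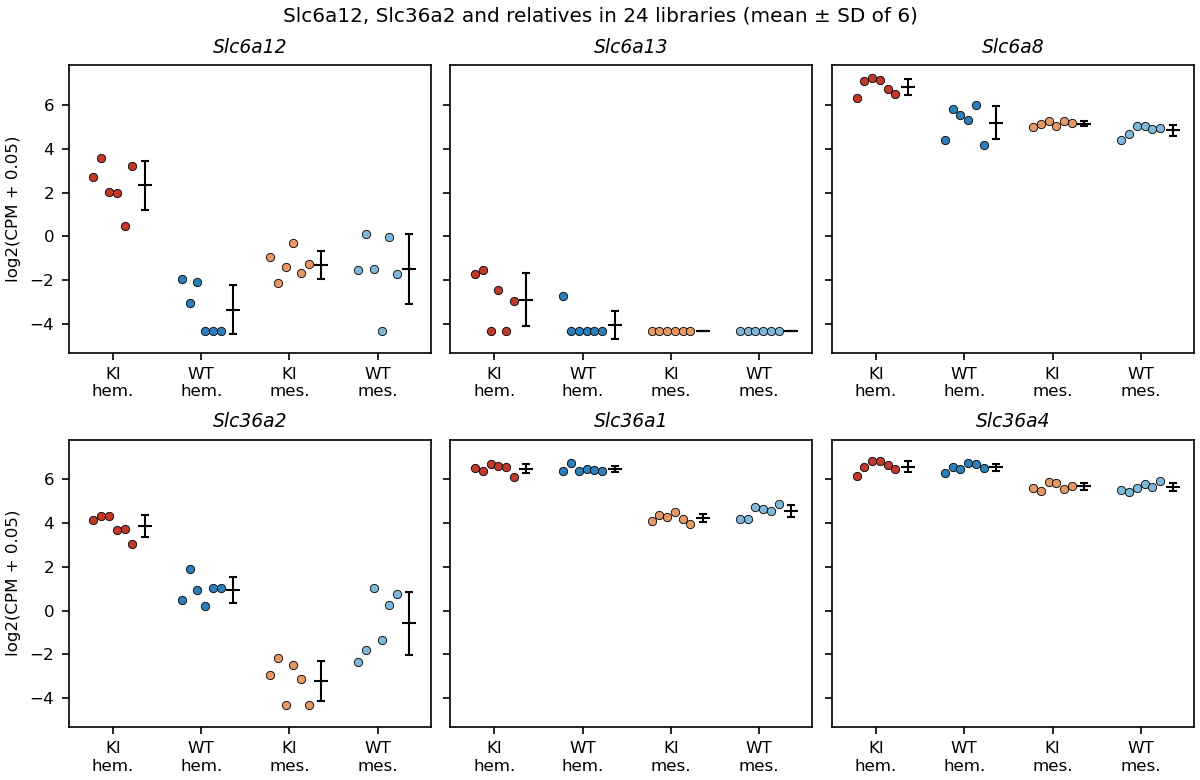
Level of Slc6a12, Slc36a2 and 4 relatives in each of 24 libraries as log2(CPM + 0.05), with the mean and SD of the 6 libraries of a group beside the points; hem. is hematopoietic and mes. is mesenchymal. Slc6a12 and Slc36a2 are higher in all 6 KI hematopoietic libraries than in any WT one, whereas the 2 genotypes overlap for Slc36a1 and Slc36a4 in both populations.

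Slc36a2 stood between 2 relatives on chromosome 11, on the minus strand at chr11:55158470-55185077, with Slc36a3 at chr11:55124815-55151708 and Slc36a1 at chr11:55204350-55236330. In hematopoietic libraries it had 8.25 to 20.1 CPM (median 15.5) in KI, against 1.12 to 3.72 CPM (median 1.94) in WT. The lowest KI library, with 107 counts, was above the highest WT library, with 53. The log2 fold change was 2.90 (SE 0.24, Benjamini-Hochberg adjusted p = 2.04e-05 from the edgeR quasi-likelihood test), and it was 3.05 and 2.74 within the 2 file-name sets (adjusted p = 0.00474 and 0.0192). In mesenchymal libraries the direction was the other way. KI mesenchymal libraries had 1, 2, 0, 2, 1 and 0 counts, against 2, 3, 26, 5, 17 and 26 in WT ones, where replicates 3, 5 and 6 held most of them. The pooled ratio of 6 to 79 counts, scaled for library size, was 0.0783 with a 95% counting interval of 0.0279 to 0.178. The filter left the gene untested there, and without the filter the log2 fold change was -3.49 (SE 0.73, edgeR adjusted p = 0.00203). DESeq2 and a fit of all 24 libraries also called this difference. The effect in mesenchymal minus that in hematopoietic cells was -6.39 (SE 0.78, edgeR adjusted p = 2.54e-05).

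Slc36a1, the family member of lysosomes, had 70.0 to 104 CPM (median 93.3) in KI and 83.4 to 108 CPM (median 85.1) in WT hematopoietic libraries. The genotypes overlapped and the log2 fold change was 0.03 (SE 0.09, edgeR adjusted p = 0.867). Slc36a4 had a log2 fold change of 0.06 (SE 0.11, edgeR adjusted p = 0.753), with 70.8 to 115 CPM in KI and 78.7 to 109 CPM in WT hematopoietic libraries. Slc36a3 had 15 counts in KI and 5 in WT hematopoietic libraries and 1 count in each mesenchymal group. Per kilobase of exon, Slc36a2 reached 4.71 CPM per kb in KI and 0.618 CPM per kb in WT hematopoietic cells, still below Slc36a1 with 16.1 in KI and 15.9 CPM per kb in WT.

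Markers of osteoclasts and of adipocytes also differed between the genotypes. In hematopoietic cells 14 of 16 osteoclast markers rose in KI, and their summed level was 3384 to 6960 CPM in KI and 1026 to 2803 CPM in WT, with none of the 16 at 0. In mesenchymal cells 5 of the 7 tested adipocyte markers fell in KI, and the sum of the 11 markers was 139 to 281 CPM in KI against 323 to 668 CPM in WT. Adipoq, an adipocyte hormone, had a log2 fold change of -5.69 (SE 0.58, edgeR adjusted p = 0.000135). Cidec and Lep were at 0 in KI mesenchymal cells, and Lep in WT ones too. Cfd was at 0 in all 24 libraries, so it says nothing of a fall. The part of osteoclast or adipocyte content in the values of Slc6a12, Slc36a2 and the other transporters was not tested. Because some of these transporters are best known from neurons, markers of neural and glial cells were also counted: the neuronal gene Tubb3 was listed at 0 in all 24 libraries, as Itgam was, and Snap25 at 0 in KI hematopoietic ones, while the list's sum of 123 to 204 CPM in KI and 81.5 to 125 CPM in WT hematopoietic libraries was nearly all Mbp, at 122 to 203 CPM in KI and 80.3 to 124 CPM in WT. Of the other cell type lists in hematopoietic cells, 3 of 15 leukocyte markers were higher and 4 lower in KI, the endothelial marker Vwf (1 of 5 tested) was higher, and the B cell gene Cd79a (1 of 6) and the platelet gene Pf4 (1 of 3 erythroid and megakaryocyte markers) were lower. Of 19 stromal and 8 neutrophil markers there, edgeR called 0, with 0 at an unadjusted p under 0.05 and 0 by DESeq2. Also in hematopoietic cells, 1 of 6 tested adipocyte markers was lower and 1 of 2 tested neural and glial markers was higher in KI. In mesenchymal cells 4 of 11 tested osteoclast markers were higher in KI, and the stromal gene Lox (1 of 21) was lower. There, 1 of 3 tested neural and glial markers was lower too. In bulk libraries of this kind, fewer cells of a type and less RNA per cell cannot be told apart.

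Slc1a5 exchanges glutamine for other neutral amino acids. It had 26 to 46.9 CPM (median 41.6) in KI hematopoietic libraries and 14.8 to 26.5 CPM (median 19.3) in WT ones. One KI library lay below the highest WT library and the other 5 lay above all WT libraries. The log2 fold change was 1.01 (SE 0.16, edgeR adjusted p = 0.00108), or 1.14 and 0.89 within the file-name sets (adjusted p = 0.0414 and 0.0635). Mesenchymal libraries had 14.7 to 33.5 CPM in KI and 24.9 to 35.8 CPM in WT, with a log2 fold change of -0.23 (SE 0.17, edgeR adjusted p = 0.474). The difference of the genotype effects was -1.22 (SE 0.24, edgeR adjusted p = 0.00205). Its closest relative Slc1a4, an exchanger of alanine, serine and cysteine, had a log2 fold change of 0.15 (SE 0.26, edgeR adjusted p = 0.762) in hematopoietic libraries. Stromal RNA estimated in those libraries would by itself carry 14.4 CPM of Slc1a4 in KI and 10.2 CPM in WT. The measured levels were 6.71 to 20.8 CPM in KI and 4.25 to 19.6 CPM in WT hematopoietic libraries. A genotype difference of Slc1a4 in hematopoietic cells themselves was therefore not tested.

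Slc38a6, a member of the family of sodium-coupled neutral amino acid transporters, had 199 to 232 CPM (median 212.5) in KI hematopoietic libraries, against 149 to 188 CPM (median 165) in WT. The groups did not overlap, but the difference was small, with a log2 fold change of 0.36 (SE 0.07, edgeR adjusted p = 0.00319). In mesenchymal cells it was -0.15 (SE 0.08, edgeR adjusted p = 0.315), and the 2 effects were -0.50 apart (SE 0.10, edgeR adjusted p = 0.00226). The rest of the family in hematopoietic cells, Slc38a1, Slc38a2, Slc38a4, Slc38a7, Slc38a9 and Slc38a10, did not pass the test. Slc38a1 averaged 123 ± 7.93 CPM in KI and 117 ± 12.3 CPM in WT hematopoietic cells (SD, n = 6 each). Slc38a9, the lysosomal arginine sensor of the growth kinase complex mTORC1, averaged 83.2 ± 7.63 CPM in KI and 91.4 ± 13.6 CPM in WT.

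Slc7a7 was the single transporter that fell in hematopoietic cells. It had 65.8 to 103 CPM (median 82.6) in KI and 81.4 to 132 CPM (median 126) in WT. The groups overlapped through 1 low WT library, and the log2 fold change was -0.48 (SE 0.15, edgeR adjusted p = 0.0419). Without the count filter the call was lost (adjusted p = 0.0546, edgeR), and it was lost when any 1 of 9 of the 12 libraries was left out. The exons of Slc7a7 share 7.0% of their length with the opposite-strand gene Oxa1l, and the strand setting of the counting is not stated. Other light chains in hematopoietic cells did not pass the test: Slc7a8 had a log2 fold change of -0.30 (SE 0.24, edgeR adjusted p = 0.471) and Slc7a5 of 0.12 (SE 0.18, edgeR adjusted p = 0.73). Their heavy chain Slc3a2 had 151 to 203 CPM in KI and 126 to 196 CPM in WT hematopoietic libraries, a log2 fold change of 0.04 (SE 0.10, edgeR adjusted p = 0.843). For Slc7a5, carried-over stromal RNA was estimated at 40.1 CPM in KI and 18.1 CPM in WT. Its measured levels were 22.8 to 71.0 CPM in KI and 33.1 to 59.1 CPM in WT hematopoietic libraries. Slc7a11, the cystine importer left out of the group, had 50.9 to 272 CPM in KI and 14 to 19.9 CPM in WT hematopoietic libraries, and rose by a log2 fold change of 2.89 (adjusted p = 0.000231, edgeR).

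In mesenchymal cells 33 transporters were tested, and 3 rose and 3 fell in KI. Slc6a17, Slc1a4 and Slc38a7, the exporter of glutamine from lysosomes, were higher, while the glutamate transporter Slc1a3 and the large neutral amino acid transporters Slc43a1 and Slc43a2 were lower. The shares, 9.09% in each direction, compare with 3.44% higher and 3.83% lower among 13867 genes. The median log2 fold change was 0.0081 over the transporters and 0.0011 over all genes. An unadjusted p under 0.05 was found for 17 of the 33 transporters in mesenchymal cells, beside 22.7% of all genes tested, and for 8 of 33 in hematopoietic cells, beside 28.7%.

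Slc1a3, which clears glutamate in brain, had 4.92 to 10.4 CPM (median 6.17) in KI and 10.2 to 17.2 CPM (median 14.6) in WT mesenchymal libraries. A single KI library reached into the WT range. The log2 fold change was -1.06 (SE 0.19, edgeR adjusted p = 0.00502), or -0.96 and -1.18 within the file-name sets (adjusted p = 0.1 and 0.096). Slc43a2 had 20.9 to 35.3 CPM (median 24.4) in KI and 29.1 to 47.9 CPM (median 39.7) in WT mesenchymal libraries, overlapping at 1 end. Its log2 fold change was -0.59 (SE 0.14, edgeR adjusted p = 0.0178), and it was -0.83 away from the hematopoietic effect of 0.25 (SE of the difference 0.21, adjusted p = 0.0146, edgeR). Slc43a1 had 6.52 to 9.0 CPM (median 7.38) in KI and 9.11 to 12.4 CPM (median 10.6) in WT, with no overlap, and a log2 fold change of -0.46 (SE 0.12, edgeR adjusted p = 0.0344). Slc43a1 lost its call when any 1 of 9 of the 12 libraries was left out. The third of the family, Slc43a3, had a log2 fold change of -0.19 (SE 0.09, edgeR adjusted p = 0.226). Exons of Slc43a2 overlap the opposite-strand Gm45606 over 9.18% of their length.

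Slc1a4 had 114 to 140 CPM (median 125) in KI and 73.5 to 110.9 CPM (median 101) in WT mesenchymal libraries. All KI libraries were above all WT libraries, and the log2 fold change was 0.36 (SE 0.10, edgeR adjusted p = 0.0347). The call was lost without any 1 of 5 of the 12 libraries. Slc38a7 had 16.4 to 23.6 CPM (median 19.3) in KI and 13.1 to 15.7 CPM (median 14.6) in WT, also without overlap, and its log2 fold change was 0.42 (SE 0.10, edgeR adjusted p = 0.0228). In hematopoietic cells it was -0.15 (SE 0.13, edgeR adjusted p = 0.467), and the 2 effects were 0.58 apart (SE 0.16, edgeR adjusted p = 0.0278). That was the only 1 of the 37 transporters tested for a difference of effects that passed upward. The other 6 that passed, Slc1a5, Slc6a8, Slc6a12, Slc36a2, Slc38a6 and Slc43a2, went downward. Over all 15389 genes, 2.92% passed upward and 4.36% downward.

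The promoters of Slc1a4 and Slc38a7 are shown since both genes were higher in KI mesenchymal cells and both windows held motifs searched, in capitals. Both genes lie on the minus strand. The Slc1a4 window held 1 CARE, in reverse orientation. The Slc38a7 window held 1 NFAT core in reverse orientation, 1 AP-1 motif and 1 E-box, in this order. Transporters that fell in KI held such motifs too: Slc7a7 1 CARE, Slc43a1 1 E-box and Slc43a2 2 NFAT cores, while Slc1a3 held none. Whether any motif goes with a change in KI was not tested.
Slc1a4 promoter, chr11:20332664-20332963: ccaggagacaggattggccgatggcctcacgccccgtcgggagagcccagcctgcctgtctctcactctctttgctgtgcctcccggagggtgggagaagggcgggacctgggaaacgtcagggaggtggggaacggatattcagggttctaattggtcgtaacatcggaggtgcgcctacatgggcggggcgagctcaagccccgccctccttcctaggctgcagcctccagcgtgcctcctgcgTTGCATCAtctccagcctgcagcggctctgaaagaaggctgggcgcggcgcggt
Slc38a7 promoter, chr8:95853442-95853741: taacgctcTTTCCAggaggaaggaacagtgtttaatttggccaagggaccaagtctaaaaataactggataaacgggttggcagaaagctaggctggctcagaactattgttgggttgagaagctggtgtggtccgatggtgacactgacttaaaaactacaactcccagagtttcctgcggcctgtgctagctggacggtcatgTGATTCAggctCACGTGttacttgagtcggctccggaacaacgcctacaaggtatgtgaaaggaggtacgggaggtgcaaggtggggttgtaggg

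**Figure D3:**
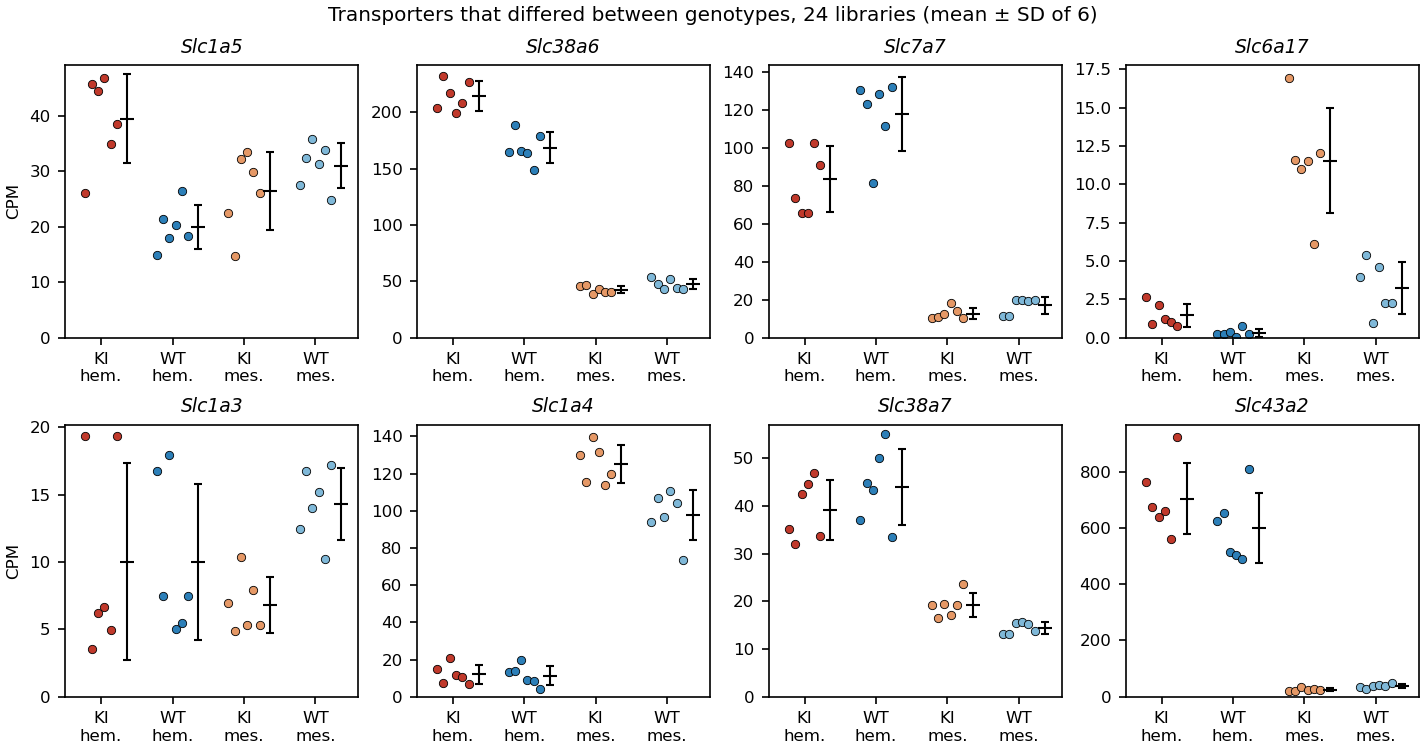
Level in CPM of 8 transporters that passed the genotype test in at least 1 population, in each of 24 libraries, with the mean and SD of 6 libraries; hem. is hematopoietic and mes. is mesenchymal. All KI points lie above all WT points for Slc38a6 in hematopoietic cells and for Slc6a17, Slc1a4 and Slc38a7 in mesenchymal cells.

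Slc7a5, the light chain that brings in leucine and other large neutral amino acids, was the most abundant of the 60 per kilobase in mesenchymal cells. Its level was 94.1 CPM per kb in KI and 46.9 CPM per kb in WT. The libraries had 282 to 438 CPM (median 358) in KI and 53.8 to 232 CPM (median 196) in WT. Every KI library was above every WT library, yet the log2 fold change of 1.01 (SE 0.29, edgeR adjusted p = 0.0544) missed the threshold. WT replicate 6, at 53.8 CPM, stood far below the other WT libraries, which had 144 to 232 CPM. Without it the gene passed, and without WT replicate 5 too; the adjusted p ran from 0.00651 to 0.106 over the 12 fits that left out 1 library. DESeq2 gave 1.02 with an adjusted p of 0.016.

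The same WT library was lowest for several transporters. Slc3a2 had 162 to 234 CPM (median 205) in KI and 63.9 to 178 CPM (median 136) in WT mesenchymal libraries, with 118 to 178 CPM in WT replicates 1 to 5. The groups overlapped and the log2 fold change was 0.61 (SE 0.20, edgeR adjusted p = 0.0928). Slc7a1, the main importer of arginine and lysine, had 204 to 277 CPM in KI and 88.8 to 210 CPM in WT, with the lowest value again in WT replicate 6, and a log2 fold change of 0.52 (SE 0.17, edgeR adjusted p = 0.0854). Slc38a2, the glutamine and alanine importer, had a log2 fold change of 0.32 (SE 0.09, edgeR adjusted p = 0.0535). The 28 genes of the amino acid starvation (ATF4) response list summed to 2342 to 3182 CPM in KI and to 788 CPM in WT replicate 6, against 1938 to 2413 CPM in WT replicates 1 to 5. Of 26 tested genes of that list 2 rose in KI mesenchymal cells, the stress gene Ddit4 and the proline synthesis gene Pycr1, with a median of 0.56. DESeq2 called 7 of the list's genes higher, and its share over all genes is not given here. Of the 26, 17 had an unadjusted p under 0.05, beside 22.7% of all genes tested. Without WT replicate 6 the edgeR test called 11, all higher in KI. Over the 12 fits that left out 1 library, 646 to 1036 of all genes passed. WT replicate 6 was itself the lowest for this list, so the 11 is no independent result on the list. In hematopoietic cells 1 rose, the transcription factor Cebpb, and 1 fell, the secreted factor Gdf15, with a median of 0.19, and between 1 and 3 of the list's genes passed there when 1 library was left out, with 1 in 7 of the 12 fits. Without WT replicate 6 the log2 fold change was 0.45 for Slc3a2 (adjusted p = 0.0645, edgeR), 0.39 for Slc7a1 (adjusted p = 0.058, edgeR) and 0.28 for Slc38a2 (adjusted p = 0.118, edgeR). With all libraries, DESeq2 called Slc3a2 (adjusted p = 0.0222), Slc7a1 (adjusted p = 0.0284) and Slc38a2 (adjusted p = 0.0203), and edgeR called Slc38a2 with DESeq2's size factors (adjusted p = 0.0489) and without the count filter (adjusted p = 0.0365).

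**Figure D4:**
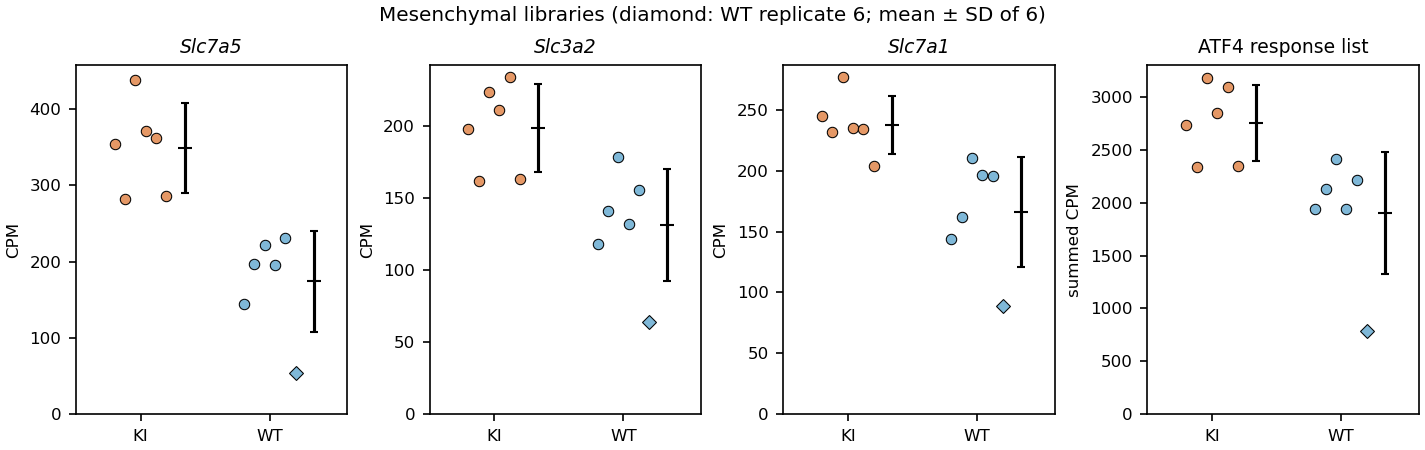
Level in CPM of Slc7a5, Slc3a2 and Slc7a1, and summed CPM of the ATF4 response list, in 6 KI and 6 WT mesenchymal libraries, with the mean and SD of 6. WT replicate 6 (diamond) is the lowest point in all 4 panels, at 53.8 CPM for Slc7a5 and 788 CPM for the list.

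In most gene lists on amino acid metabolism few of the tested genes passed. In the arginine, proline and polyamine list 4 of 15 tested genes rose in KI hematopoietic cells, with a median log2 fold change of 0.15 over the list: Ass1, which makes argininosuccinate (2.74, adjusted p = 2.32e-05), Arg2 (2.70, adjusted p = 0.000916) and Arg1 (3.04, adjusted p = 0.0148), the arginases, and Odc1, the first enzyme of polyamine synthesis (0.94, adjusted p = 0.00304, all log2 fold changes by edgeR). In mesenchymal cells 1 of 13 rose, Pycr1, with a median of 0.14. The glutamine and glutamate list had 2 of 12 higher in hematopoietic cells, the glutamine synthetase Glul (0.58, adjusted p = 0.00175, edgeR) and the aminotransferase Got2 (0.43, adjusted p = 0.00801, edgeR), and a median of 0.16. In mesenchymal cells 2 of 13 were higher, Glul (0.43, adjusted p = 0.0411, edgeR) and Ppat (0.41, adjusted p = 0.0294, edgeR), which begins purine synthesis, and the median was 0.16. That mesenchymal count of 2 was lower, at 0 or 1, in 11 of the 12 fits that left out 1 library, all but that without KI replicate 6. Without WT replicate 2 the arginine, proline and polyamine list had 2 mesenchymal genes that passed.

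Of the taurine and creatine list, Cdo1, which oxidises cysteine toward taurine, fell in both populations, by a log2 fold change of -1.38 (adjusted p = 0.0099, edgeR) in hematopoietic and -0.85 (adjusted p = 0.00484, edgeR) in mesenchymal cells. It was the 1 gene of 6 tested that passed in hematopoietic cells, where the list's median was -0.29. In mesenchymal cells, with a median of -0.34, 1 of 7 rose, Gatm, the first enzyme of creatine synthesis, and 2 fell, Cdo1 and Fmo1. In the GABA and betaine list 1 of 9 tested genes fell in each population, Aldh9a1, an enzyme of GABA and betaine synthesis, with -0.60 (adjusted p = 0.00136, edgeR) in hematopoietic cells and -0.50 (adjusted p = 0.0189, edgeR) in mesenchymal cells; the list's medians were -0.12 and 0.03. The osmotic stress list had 2 of 10 higher in hematopoietic cells, Sgk1 (1.23, adjusted p = 0.0021, edgeR) and Hspa4l, and 1 lower, Wnk1, with a median of 0.13. In mesenchymal cells 1 of 12 was higher, Wnk1, with a median of 0.12. When 1 library was left out, between 1 and 4 genes of this list passed in hematopoietic cells, with the lowest number without KI replicate 3, and between 0 and 2 in mesenchymal cells, where the number stayed at 1 only without KI replicate 4 or KI replicate 5. The mTORC1 sensing list had 1 of 32 higher in hematopoietic cells, Rragd (1.10, adjusted p = 0.00243, edgeR), and 2 lower, Fnip1 and Sesn1, and a median of 0.00062. In mesenchymal cells 1 of 31 fell, the lysosome regulator Tfeb, and the median was -0.037; without WT replicate 6 or KI replicate 1, 2 or 5 the number that passed was 0 or 2. Among other solute carriers of amino acids, Slc7a11 rose and Slc15a3 fell of 10 tested in hematopoietic cells, and Slc15a4 rose of 9 in mesenchymal cells; the medians were 0.01 and 0.11, and 2 passed in mesenchymal cells without WT replicate 6. In the branched-chain and aromatic catabolism list edgeR called 0 of 9 genes in hematopoietic cells, where 4 had an unadjusted p under 0.05 and DESeq2 called 1, as edgeR did without WT replicate 3, 4 or 5 or KI replicate 3 or 6, and 0 of 7 in mesenchymal cells, where 3 had an unadjusted p under 0.05 and DESeq2 called 0. Its medians were 0.03 in hematopoietic and 0.13 in mesenchymal cells.

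The populations differed in most transporters tested, which is also true of most genes. In WT, 19 of 37 transporters were higher in mesenchymal than in hematopoietic cells and 12 were lower, beside 35.4% higher and 38% lower among 15389 genes. In KI, 17 were higher and 16 lower, beside 33.9% and 39.1%. The median log2 difference over the 37 was 0.64 in WT and 0.22 in KI. By family in WT, 5 of 6 tested Slc1a genes were higher in mesenchymal cells and 0 were lower. All 3 tested Slc36a genes were lower, and Slc38a split into 3 higher and 4 lower. The Slc36a2 difference of -1.08 was not called in 6 of the 12 fits that left out 1 library. Without the count filter, the calls of Slc36a2 and of Slc1a1 and Slc1a2 were lost.

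The steepest fall was that of Slc7a8, a light chain for neutral amino acids. It had 0.779 to 2.85 CPM (median 2.39) in WT mesenchymal libraries, against 195 to 477 CPM (median 273) in WT hematopoietic libraries, a log2 difference of -7.13 (SE 0.30, edgeR adjusted p = 7.64e-16). No library of the lower population came near the other. Slc7a15 (-5.43), Slc43a2 (-3.95), Slc7a7 (-2.81) and Slc36a1 (-1.93) followed on the log2 scale, and for all 4 the populations did not overlap in WT. Slc7a15 had 2 counts in all WT mesenchymal libraries, so its difference is loosely fixed. The largest rises were those of Slc1a6, a glutamate transporter known from Purkinje cells (3.68), Slc43a1 (3.54), Slc6a17 (3.32), Slc1a4 (3.16) and Slc38a4 (2.98). Slc1a6 had 9.81 to 25.9 CPM in WT mesenchymal and 0.497 to 2.16 CPM in WT hematopoietic libraries. Slc1a4 had 73.5 to 110.9 CPM in WT mesenchymal and 4.25 to 19.6 CPM in WT hematopoietic libraries. Slc38a4, a neutral amino acid transporter, varied widely in WT mesenchymal libraries, from 10.4 to 66.1 CPM, and had 0.0746 to 7.94 CPM in WT hematopoietic ones. Stromal RNA estimated in WT hematopoietic libraries would by itself carry 1.56 CPM of Slc1a6, 1.10 of Slc43a1 and 0.335 of Slc6a17. For Slc1a4 it would carry 10.2 CPM and for Slc38a4 3.09 CPM. The measured hematopoietic levels were near these, with means of 1.17 CPM for Slc1a6 and 11.4 CPM for Slc1a4. The size of these rises is therefore loosely fixed, and expression in hematopoietic cells themselves is not shown. The light chains divided by population: Slc7a5 was higher in mesenchymal WT cells by a log2 difference of 2.03 (SE 0.26, edgeR adjusted p = 2.86e-07), and Slc7a7 and Slc7a8 were lower. Their heavy chain Slc3a2 had -0.36 (SE 0.17, edgeR adjusted p = 0.0577).

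The order of levels per kilobase of exon shows the same division. WT mesenchymal cells were led by Slc7a5 (46.9 CPM per kb), Slc6a6 (42.6), Slc3a2 (37.2), Slc38a10 (36.7) and Slc1a4 (24.9). WT hematopoietic cells were led by Slc6a6 (104 CPM per kb), Slc43a2 (59.7), Slc7a8 (59.2), Slc3a2 (47.6) and Slc7a7 (35.6). Slc43a2 and Slc7a8 in WT hematopoietic cells were closer to each other than the spread of either, as were Slc3a2 and Slc38a10 in WT mesenchymal cells. In KI hematopoietic cells Slc6a6 made 22.6% and in WT 22.1% of the summed CPM per kb of the 60 genes. Slc7a5 made 23.4% of that sum in KI and 14.1% in WT mesenchymal cells. Slc38a10 differed between mesenchymal genotypes by less than its spread, with 234 ± 33.3 CPM in KI and 235 ± 35.0 CPM in WT (SD, n = 6 each).

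**Figure D5:**
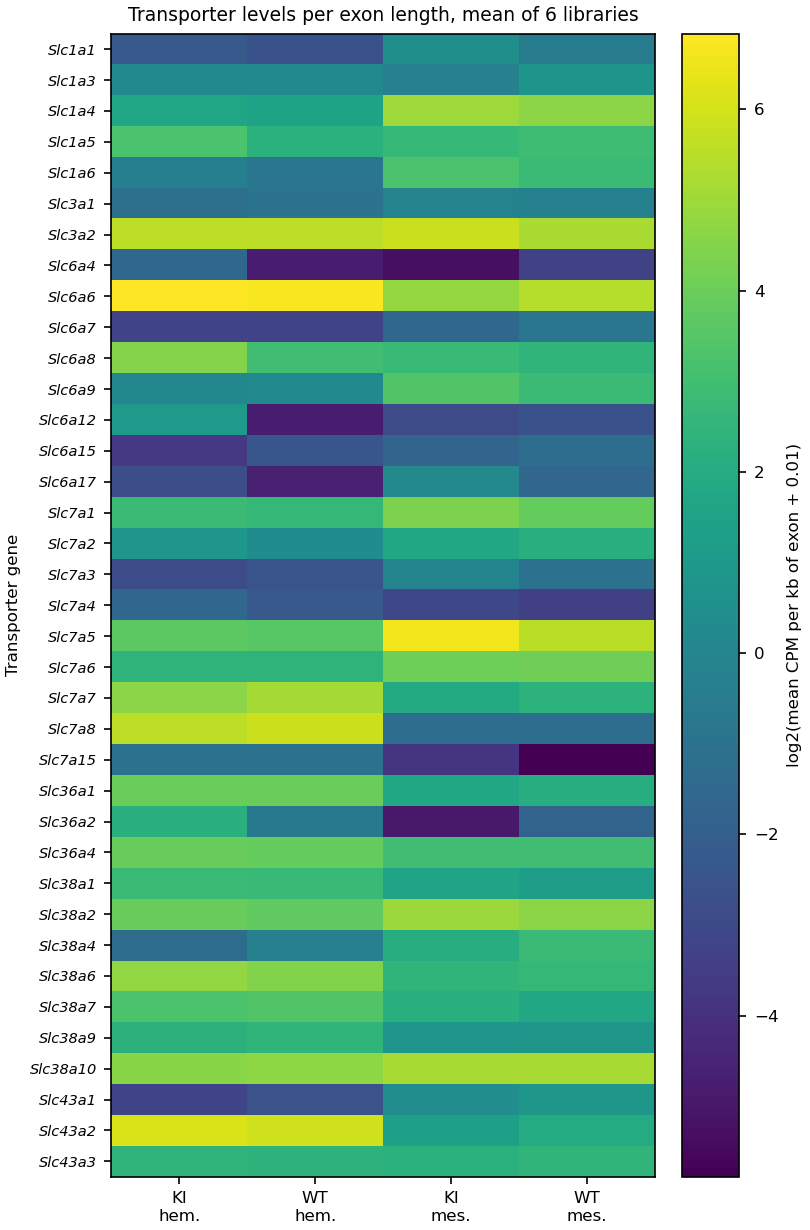
Mean level of the 37 transporters that reached at least 0.3 CPM per kb in some group, as log2(CPM per kb of exon + 0.01), in columns for KI and WT hematopoietic (hem.) and KI and WT mesenchymal (mes.) cells, 6 libraries each. Slc6a6 and Slc43a2 are brightest in both hematopoietic columns, and Slc7a5 in the KI mesenchymal column at 94.1 CPM per kb.

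In each population 27 transporters had too few counts to be tested for genotype, and 23 of them were tested in neither. In hematopoietic cells the untested ones were Slc1a2, Slc1a7, 14 of the Slc6a genes, Slc7a3, Slc7a9, Slc7a10, Slc7a12, Slc7a13, Slc7a14, Slc36a3, Slc38a3, Slc38a5, Slc38a8 and Slc38a11. Slc7a13 had 29 counts in KI and 34 in WT hematopoietic libraries. Slc7a3, an arginine and lysine importer, had 292 counts in KI and 152 in WT mesenchymal libraries and was tested there, at a log2 fold change of 0.98 (SE 0.39, edgeR adjusted p = 0.149). Slc6a12, Slc7a4, Slc7a15 and Slc36a2 were tested in hematopoietic cells only. Of the 23 tested in neither, Slc6a4 alone passed in the fits without the count filter. Counting intervals of the pooled KI over WT ratio left out equality for some others. For Slc6a2 the ratio was 0.25 in mesenchymal cells (0.0998 to 0.552) and 0.30 in hematopoietic cells (0.119 to 0.693). For Slc6a19 it was 2.97 in hematopoietic cells (1.46 to 6.51). These intervals cover counting error only, so differences in these genes are neither shown nor excluded.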

How the data were processed

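RNA was extracted from sorted cells, depleted of ribosomal RNA and made into stranded libraries with a SMARTer kit, then sequenced from both ends on a NextSeq, per the labels' protocols. The deposited files hold raw counts per gene and library made by the authors, with no normalisation. Per the submitters' processing notes, the authors' tools included HTSeq 0.9.1, DESeq2 1.20.0, FastQC 0.11.7 and MultiQC, on GRCm38 (mm10). Aligner settings and strandedness of counting were not given in the sources used here. Genes that share exons with a gene on the other strand are therefore uncertain.

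Of 54232 identifiers, 54165 matched GENCODE M21, which gave symbols, coordinates and exon lengths. Tests ran in R 4.3.3 with edgeR 4.0.16: filterByExpr (minimum count 10, minimum total 15), TMM, robust quasi-likelihood fits, and Benjamini-Hochberg adjustment over all genes tested, with a threshold of 0.05. Genotypes were compared in 1 fit per population of 12 libraries, and populations and the interaction in 1 fit of all 24. File names fall into 2 sets with 3 libraries of each group in each, a term in every fit whose meaning the labels do not state. DESeq2 1.42.0 was an alternative. Replicates were compared pairwise, and the chi-square per degree of freedom was 6.73 or more in every group, so none was merged. The fits were checked on simulated counts.

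To estimate RNA from the other population, each of 18 stromal or 15 leukocyte markers was divided by its mean there in the same genotype, and the median was taken. An alternative subtracted that estimate times the other population's mean levels from the counts. Markers needed a mean of 10 CPM. Counting intervals are exact at a level of 0.95. Promoter sequences are from RefSeq.

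The transporters and the gene lists were chosen with earlier results of these data known. Named with full values were Slc6a12 and Slc36a2, every transporter that passed a genotype or interaction test, the 5 with the highest CPM per kilobase in each WT population, and the 5 largest rises and falls between WT populations; Slc6a and Slc36a relatives are given by level, and list genes if they passed. Alternatives were other scalings, no count filter, no set term, a replicate block, each set alone, 1 fit of all libraries, subtraction of the other population, and each library left out. Leaving out the 2 libraries with the most stromal RNA, and the subtraction for the interaction, were chosen after seeing the data. Values of 1 transporter of the group are not reported here.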

Additional observations from a re-analysis of the deposited data

Results flagged for a closer look

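Differences of the genotype effect between the populations passed the interaction test for 7 transporters, given as mesenchymal minus hematopoietic log2 fold change: -1.22 for Slc1a5, -1.25 for Slc6a8, -6.50 for Slc6a12, -6.39 for Slc36a2, -0.50 for Slc38a6, 0.58 for Slc38a7 and -0.83 for Slc43a2. Slc36a2 went in opposite directions, higher in KI hematopoietic cells and, in the fit without a count filter, lower in KI mesenchymal cells. Slc6a12 and Slc36a2 had few counts in mesenchymal libraries, so the size of their differences is loosely fixed.

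In 2 of 84 combinations of transporter and group, 1 library stood apart from the other 5; chance gives about 1 in 20, or 4.2. Slc36a1 had 108.3 CPM in WT hematopoietic replicate 2, against 83.4 to 90.2 CPM in the other 5. Slc36a2 had 3.72 CPM in the same library, against 1.12 to 2.01 CPM in the others. Slc36a1 and Slc36a2 are neighbours on chromosome 11, and whether the 2 values have 1 source was not tested.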

How the results depend on the processing

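The genotype counts rested on all 12 libraries of a population. Of the 7 transporters called in hematopoietic cells, 4 were called in the first file-name set alone and 1 in the second, where Slc6a12 had 9.08 (adjusted p = 0.0641, edgeR); in mesenchymal cells 1 was called in each set, Slc7a5 in the first, which is not among the 6 called with all libraries, and Slc43a2 in the second. Each set has fewer libraries. DESeq2 called 11 transporters in mesenchymal cells and 9 in hematopoietic cells. Leaving out 1 library gave 6 to 7 calls in hematopoietic cells, 3 to 6 in mesenchymal cells (3 without KI replicate 1), 6 to 9 for the interaction, 29 to 33 between WT populations and 33 to 34 between KI populations. A replicate block raised the hematopoietic count to 9 and the mesenchymal count to 13. It added Slc3a2, Slc6a6, Slc7a1, Slc7a5, Slc38a2, Slc1a6 and Slc1a1 in mesenchymal cells, the last with 0.85 (adjusted p = 0.0307, edgeR). Among all genes, leaving out 1 library gave 1745 to 2206 calls in hematopoietic and 646 to 1036 in mesenchymal cells. It gave 937 to 1166 for the interaction, 11135 to 11334 between WT populations and 11078 to 11257 between KI populations. The number of all genes called is not given here for DESeq2, each set alone or the block. A changed count under these settings is no result about the transporters. Same-numbered libraries were not taken as pairs: their deviations correlated at 0.0892 to 0.446 in hematopoietic and -0.039 to 0.337 in mesenchymal cells, and 3 KI and 3 WT of 6 hematopoietic, and 3 KI and 2 WT of 6 mesenchymal libraries, correlated best with their own number. Slc1a3, Slc1a4 and Slc43a1 were not called in 1 fit of all 24 libraries, and Slc38a7 and Slc43a1 not without the count filter. Slc6a12 and Slc36a2 were called in hematopoietic cells under every other alternative run. No transporter difference that passed a genotype or interaction test changed direction under the alternatives run on it; among values that did not pass, hematopoietic Slc1a4 was -0.08 in the first set and 0.41 in the second, and Slc7a5 was 0.27 and -0.02. Low counts limit what can be said of most Slc6a genes.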

Other observations

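Slc1a1, a glutamate transporter of neurons and kidney, was low in replicates 4 and 5 of both genotypes in mesenchymal cells. KI replicates 4 and 5 had 0.774 and 0.861 CPM, against 10.3 to 28.2 CPM in the other 4 KI libraries, and WT replicates 4 and 5 had 0.557 and 0.334 CPM, against 8.03 to 11.1 CPM in the other 4 WT libraries. Within each replicate number the KI library was above the WT library, in 6 of 6. Same-numbered libraries are not known to be pairs, and this was not particular to Slc1a1. Slc3a2, Slc7a1 and Slc7a5, among others, were also above in 6 of 6, and Slc1a3 and Slc43a2 in 0 of 6. The genotype test gave a log2 fold change of 0.76 (SE 0.72, edgeR adjusted p = 0.593). The pattern over replicate numbers was noticed after the values were seen. The exons of Slc1a1 overlap the opposite-strand gene 4430402I18Rik over 31.9% of their length.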
